A study of Mus musculus with 4 samples.

Results

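The transcripts described here are those of 10 genes of the muscle side of the neuromuscular junction and of the muscle's known reaction to loss of its nerve. They were taken by their symbols, Chrna1, Chrnb1, Chrnd, Chrne, Chrng, Chrna9, Musk, Runx1, Gadd45a and Hdac4, from the 23282 gene rows measured in mouse gastrocnemius, a fast calf muscle. The rule uses the symbols and no measured value, and all 10 symbols were found in each library. Both the members and the gene lists used below were, however, chosen with earlier results of these data known. The study crossed high-intensity aerobic exercise (E) with a tumor (T) in male CDF1 mice. Exercise was running on a motorized treadmill, and the tumor was raised by injecting CT26 cells, a murine colorectal cancer line, into the tail vein. The healthy groups were called normal control, E(−)T(−), and normal exercise, E(+)T(−), and the tumor-bearing groups were cancer control, without exercise or E(−)T(+), and cancer exercise, E(+)T(+). Values below are given in this order of libraries. The labels name 10 mice in each group and an age of 28 days, an age that the methods give for the mice at purchase. The paper describes RNA from a representative mouse of each group, so it is not settled whether a library holds 1 animal or several. Each group had 1 library, so no difference below has a replicate check, no p-value is given, and each comparison is one of libraries rather than of conditions.

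At the neuromuscular junction the motor nerve releases acetylcholine onto a receptor built of 5 subunits packed into the muscle membrane. Fetal and denervated fibres use a receptor with a gamma subunit, and innervated adult fibres use one with an epsilon subunit in its place. Nerve-derived agrin acts through Lrp4 on the kinase MuSK, which with Dok7 and rapsyn clusters the receptors under the nerve terminal. Electrical activity keeps receptor genes silent outside the synapse. When the nerve is cut or a muscle is inactive, the deacetylase HDAC4 accumulates, myogenin rises, and fibres make receptor subunits, MuSK, Runx1 and Gadd45a along their length.

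The promoter sequences of the junction genes are shown first, because receptor genes are known to be driven in muscle through E-boxes, which bind myogenic factors such as MyoD and myogenin, and in synaptic nuclei through the N-box, which binds Ets factors. RefSeq held a window for 9 of the 10 members on GRCm38.p6, with 2 windows for Runx1, and the promoter of Chrnd was not analysed here. In the 250 bases before the start, searched on both strands, an E-box (CANNTG) was present for 8 members and in 66.2% of all 32851 windows of the same length. The form CAGCTG, which is an E-box too, was present for 5 members, Chrna1, Chrne, Chrng, Chrna9 and Musk, and in 13.0% of all windows. The N-box (CCGGAA) was present for 3 members, Chrne, Runx1 and Gadd45a, and in 12.0% of all windows. The letters TGTGGT, bound by Runx factors, were found in none of the members' windows and in 14.0% of all windows. The windows of the 5 members with CAGCTG follow, 5′ to 3′ on the gene's strand and ending at the base before the start, with E-boxes and N-boxes in capitals.
Chrna1, chr2:73580339-73580588, minus strand, GRCm38.p6: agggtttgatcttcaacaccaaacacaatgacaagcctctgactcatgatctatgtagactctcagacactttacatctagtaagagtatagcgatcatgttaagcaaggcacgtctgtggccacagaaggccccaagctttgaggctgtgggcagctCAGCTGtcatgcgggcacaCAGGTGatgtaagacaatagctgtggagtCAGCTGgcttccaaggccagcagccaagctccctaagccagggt
Chrng, chr1:87205561-87205810, plus strand, GRCm38.p6: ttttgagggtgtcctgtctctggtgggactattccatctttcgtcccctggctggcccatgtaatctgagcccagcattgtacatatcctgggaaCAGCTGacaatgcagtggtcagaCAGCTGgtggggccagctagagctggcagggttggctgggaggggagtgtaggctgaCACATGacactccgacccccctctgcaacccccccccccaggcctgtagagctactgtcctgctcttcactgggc
Chrne, chr11:70619195-70619444, minus strand, GRCm38.p6: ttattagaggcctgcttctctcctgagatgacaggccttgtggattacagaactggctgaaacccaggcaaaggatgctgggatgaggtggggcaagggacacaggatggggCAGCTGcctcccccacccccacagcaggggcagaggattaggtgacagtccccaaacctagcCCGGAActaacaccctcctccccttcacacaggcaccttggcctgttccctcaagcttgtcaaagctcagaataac
Musk, chr4:58285712-58285961, plus strand, GRCm38.p6: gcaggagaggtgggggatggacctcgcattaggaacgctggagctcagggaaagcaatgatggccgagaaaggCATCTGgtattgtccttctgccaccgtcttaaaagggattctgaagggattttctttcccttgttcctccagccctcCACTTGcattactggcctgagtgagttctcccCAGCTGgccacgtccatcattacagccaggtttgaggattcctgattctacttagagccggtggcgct
Chrna9, chr5:65966874-65967123, plus strand, GRCm38.p6: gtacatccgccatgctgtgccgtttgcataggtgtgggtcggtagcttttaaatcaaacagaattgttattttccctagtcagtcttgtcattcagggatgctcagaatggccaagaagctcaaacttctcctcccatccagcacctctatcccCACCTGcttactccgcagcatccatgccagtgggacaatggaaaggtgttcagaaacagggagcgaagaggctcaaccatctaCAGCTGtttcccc
The genes of the gamma and epsilon subunits differed in these letters. The Chrng window held CAGCTG at 2 places and no N-box, whereas the Chrne window held it at 1 place together with an N-box from 76 to 71 bases before the start. Chrna1 also held CAGCTG at 2 places, the nearer of them from 44 to 39 bases before the start. A match of letters describes the sequence and is not evidence of binding. The starts are those of RefSeq, and for Chrng, Chrne, Musk and Chrna9 they lie a little or well inside the gene spans of GENCODE given below.

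The libraries held between 10647751 and 13226068 reads, as rebuilt from the deposited values, and reads were present for 14427 to 14830 genes. Values are normalized read counts, scaled by the authors to a common library size, and a fold change is the difference of log2(normalized read count + 1), which understates the change of genes with few reads. A gene was called when it differed by 2-fold or more and its normalized read count reached 4 in 1 or both of the libraries. These thresholds follow the study, whose text does not say in which libraries, or on which scale, its minimum of 4 applies. Read as 4 on the log2 scale, a normalized read count near 16, it left fewer calls, as given below. Intervals are 95% Clopper-Pearson limits on the share of a pair's reads. They cover counting error only, as each group had 1 library. The methods name no molecular identifiers for the reads, so reads copied in amplification are not told apart and the intervals may be too narrow. All 12 skeletal muscle fibre markers had reads in each library. Their summed normalized read count was 1500000, 1160000, 856000 and 956000, with 6 of 12 called between cancer control and normal control, 2 higher and 4 lower, and the part of that shift in the results was not tested. In whole muscle, fewer cells of a type and less RNA per cell cannot be told apart.

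Members were called in each of the 4 comparisons. Between cancer exercise and normal exercise [E(+)T(+) vs. E(+)T(−)], 7 of the 10 members were called, 5 higher and 2 lower, where 30.3% of all 14470 genes past the minimum were called, 13.9% higher and 16.3% lower. The tumor without exercise [E(−)T(+) vs. E(−)T(−)] came with 5 of 10 members called, 4 higher and 1 lower, against 45.1% of all genes, 20.9% higher and 24.2% lower. The share of members called in that pair, 5 of the 9 past the minimum, was near the share of all genes. Exercise in tumor-bearing mice [E(+)T(+) vs. E(−)T(+)] gave 4 of 10 called, 2 higher and 2 lower, against 30.6% of all genes, 15.6% higher and 15.1% lower. Exercise in healthy mice [E(+)T(−) vs. E(−)T(−)] gave 1 of 10 called, which was higher, against 21.5% of all genes, 9.44% higher and 12.1% lower. Below the minimum of 4 in both libraries were Chrng in the first of these pairs, Chrnd in the second, no member in the third, and Chrnd, Chrng and Chrna9 in the fourth. The shares of all genes are of those past the minimum, which 9, 9, 10 and 7 members passed. Chrnd, Chrng and Chrna9 passed it elsewhere only through the cancer libraries, and a gene that passes through 1 library of a pair alone had to differ between them. The median log2 fold change of the members past the minimum was 1.07, 0.89, 0.65 and 0.62 in these pairs in the order just given, and that of all genes was −0.03, −0.04, 0.01 and −0.01. With a minimum of 16 the members called were 6, 4, 2 and 1 in these pairs, without Chrnd in the first, without Chrng in the second and without both in the third. Of all 23282 gene rows, 2955, 5126, 2966 and 1741 were called in that setting. At 4-fold the order of the first and second pair turned, with 3 and 4 members called. Of all genes past the minimum, 1951 of 14470 and 3178 of 14818 were then called. These pairs share libraries with each other, so their counts are not separate lines of evidence. As the members were chosen with earlier results known, a share above that of all genes is not independent of these data.

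**Figure D1:**
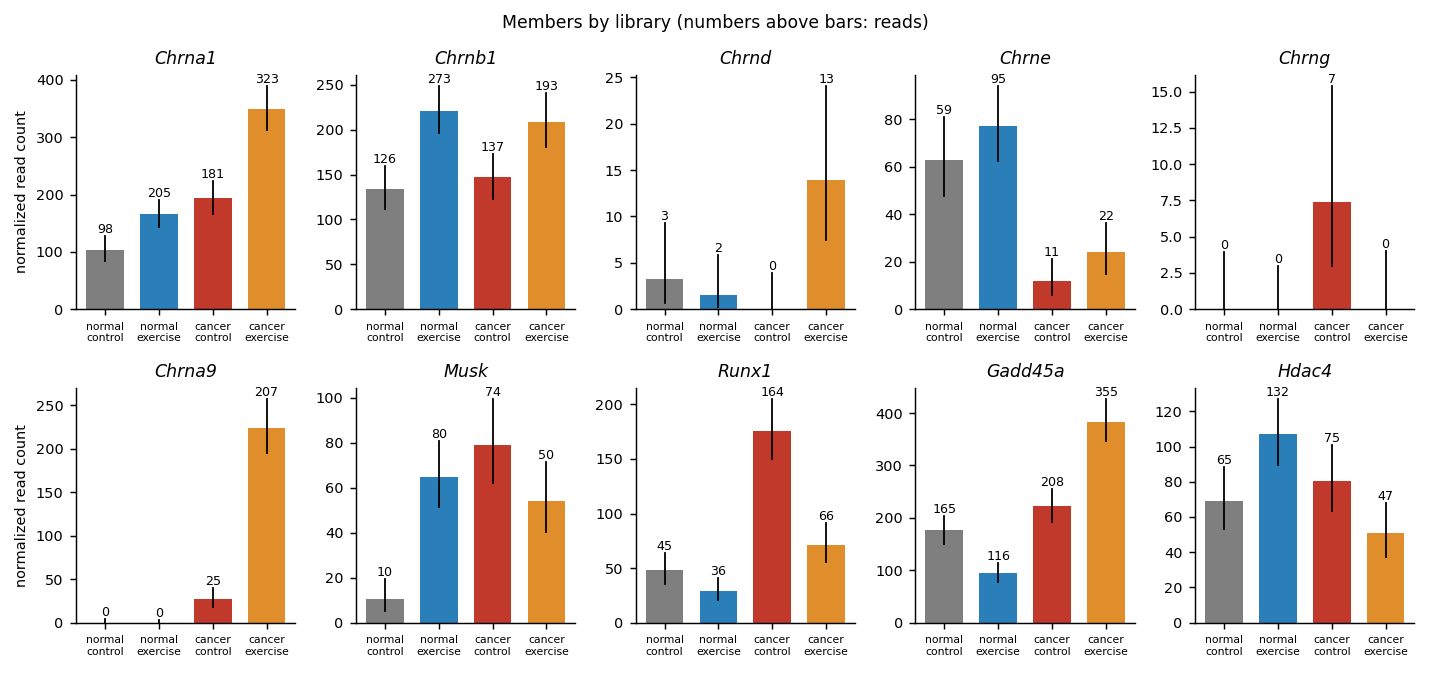
Normalized read counts (vertical axis, from 0) of the 10 members in the 4 libraries, with 95% Poisson counting intervals as lines and reads printed above the bars. Chrna9 has no reads in the 2 healthy libraries and 207 in cancer exercise, Musk is low in normal control alone with 10 reads, and Chrne is low in both cancer libraries.

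Chrna1 encodes the alpha subunit, which carries the main part of the acetylcholine binding site (chromosome 2, 73563215 to 73580338, minus strand; this and the positions below are of whole genes in GENCODE M21 on GRCm38). It had normalized read counts of 104, 166, 194 and 350, from 98, 205, 181 and 323 reads. Normal control was the lowest library and cancer exercise the highest, while the intervals of normal exercise and cancer control overlapped. The step between cancer exercise and normal exercise was 2.10-fold (log2 1.07, interval 0.82 to 1.33) and was called. The other 3 differences were smaller, at 0.67 for exercise in healthy mice, 0.89 for the tumor without exercise and 0.85 for exercise in tumor-bearing mice on the log2 scale, and each of their intervals lay above 0. With scaling to total counts in place of the deposited scaling, the call in cancer exercise against normal exercise was lost.

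Chrnb1, the gene of the beta subunit, which helps to link the receptor to rapsyn (chromosome 11, 69784036 to 69795943, minus strand), had normalized read counts of 134, 221, 147 and 209. Both exercised libraries were higher than both libraries without exercise, by 1.65-fold in healthy mice (log2 0.72, interval 0.41 to 1.04) and by 1.42-fold in tumor-bearing mice (log2 0.51, interval 0.19 to 0.84). Neither reached the 2-fold threshold. The tumor made little difference to Chrnb1, at 0.13 (interval −0.23 to 0.49) without exercise and −0.08 (interval −0.36 to 0.19) with exercise on the log2 scale.

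Chrnd, the gene of the delta subunit (chromosome 1, 87190607 to 87200070, plus strand), was rarely read. It had 3, 2, 0 and 13 reads, so that cancer exercise was the high library, with a normalized read count of 13.9. With cancer control at 0 reads, cancer exercise was at least 4.38-fold higher. Against normal exercise the log2 fold change was 2.57 with an interval from 0.98 to 6.31. Both differences were called. No fold change is given between the other libraries, which were at or under the 3 reads used here as a floor.

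The genes of the adult and fetal subunits went different ways in cancer control, the fetal one on few reads. In cancer exercise the fetal one had no reads, as in the healthy libraries. Chrne, the gene of the adult epsilon subunit (chromosome 11, 70614883 to 70619216, minus strand), had normalized read counts of 62.7, 77.2, 11.8 and 23.9, from 59, 95, 11 and 22 reads. Both cancer libraries lay below both healthy libraries, with no overlap of counting intervals. Chrne was 4.97-fold lower in cancer control than in normal control (log2 −2.31, interval −3.49 to −1.47) and 3.14-fold lower in cancer exercise than in normal exercise (log2 −1.65, interval −2.43 to −1.01). It was the 1 member called lower with the tumor whether or not the mice had exercised. Exercise made a difference of 0.29 in healthy mice (interval −0.19 to 0.79) and of 0.95 in tumor-bearing mice (interval −0.09 to 2.21) on the log2 scale. Neither was called, although the second passed 2-fold where no pseudocount was added and where reads were thinned to the smallest library. The opposite-strand gene 4930544D05Rik overlaps Chrne by 1043 bases and had no reads in any library.

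Chrng, the gene of the fetal gamma subunit (chromosome 1, 87204657 to 87212694, plus strand), starts 4586 bases after the end of Chrnd. It had reads in cancer control alone, 7 of them, for a normalized read count of 7.36. Cancer control was thus at least 2.35-fold higher than normal control and at least 2.31-fold higher than cancer exercise. The bounds are low because the gene had few reads. Of all reads of Chrng and Chrne together, Chrng took 7 of 18 in cancer control, or 38.9% (Clopper-Pearson interval 17.3% to 64.3%). In normal control it took 0 of 59, where the floor of 3 reads is 5.08% and the Clopper-Pearson upper limit 6.06%. In normal exercise it took 0 of 95, with a floor of 3.16% and an upper limit of 3.81%. In cancer exercise it took 0 of 22, with a floor of 13.6% and an upper limit of 15.4%. Reads were taken at the 3′ end of transcripts and do not scale with transcript length, so the share is one of reads. The upper limit of 15.4% in cancer exercise lay close below the lower limit of 17.3% in cancer control, and both rest on few reads.

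**Figure D2:**
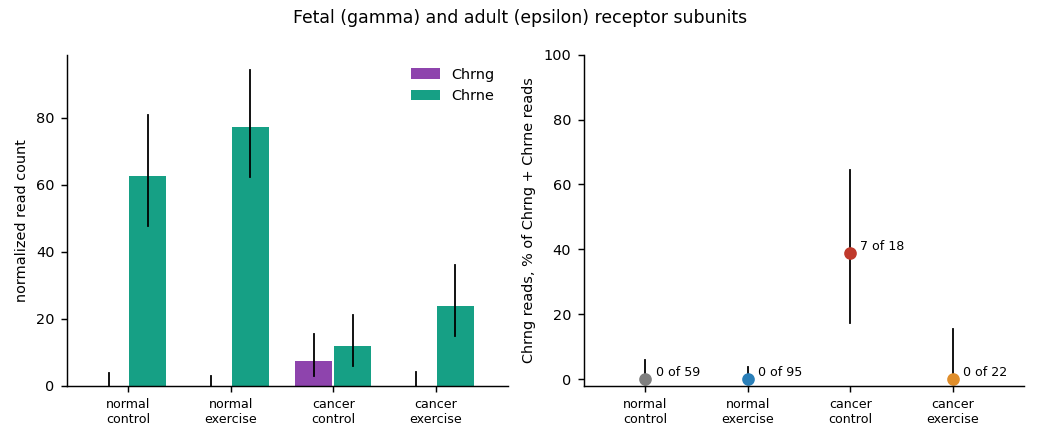
Left, normalized read counts of Chrng and Chrne in the 4 libraries with 95% Poisson intervals. Right, Chrng reads as a percent of Chrng and Chrne reads with Clopper-Pearson intervals, where cancer control stands at 38.9% (7 of 18 reads) and the other 3 libraries at 0.

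Chrna9 encodes a nicotinic subunit best known from hair cells of the inner ear, and it is not part of the classical muscle receptor (chromosome 5, 65934921 to 65977326, plus strand). It had 0 reads in either healthy library, 25 in cancer control and 207 in cancer exercise, with normalized read counts of 26.8 and 224 in the latter pair. Its reads were thus found in the cancer libraries alone. Cancer control was at least 8.39-fold higher than normal control, and cancer exercise at least 92.2-fold higher than normal exercise. Cancer exercise was 8.08-fold higher than cancer control (log2 3.01, interval 2.46 to 3.73). The Chrna9 window shown above held CAGCTG from 13 to 8 bases before the start. The gene models 4930480C01Rik and Gm43771 overlap Chrna9 on its own strand by 901 and 1578 bases, and reads in those stretches cannot be assigned to one of them. Chrna10, whose product pairs with that of Chrna9 in hair cells, had 158, 102, 52 and 90 reads. It was called lower in cancer control than in normal control (log2 −1.58, interval −2.07 to −1.13) and was not called between cancer exercise and normal exercise (log2 0.24, interval −0.19 to 0.66). Chrna9 and Chrna10 thus did not move together across the libraries.

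The other neuronal-type subunits were scarcely read. Of the 10 further nicotinic subunit genes, 2 or 3 passed the minimum in each comparison. Chrna2, a neuronal alpha subunit gene, had 1, 0, 12 and 3 reads and was called higher in cancer control than in normal control (log2 2.71, interval 0.84 to 9.01) and lower in cancer exercise than in cancer control (log2 −1.68, interval −4.45 to −0.09). Chrna4, another neuronal alpha subunit gene, had 7 and 10 reads in the healthy libraries and 0 in both cancer libraries. Cancer control was at least 2.32-fold lower than normal control for this gene, and cancer exercise at least 2.50-fold lower than normal exercise.

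Musk, the kinase gene at the centre of receptor clustering (chromosome 4, 58285960 to 58374303, plus strand), had normalized read counts of 10.7, 64.9, 79.2 and 54.1, from 10, 80, 74 and 50 reads. Normal control was the low library, and the counting intervals of the other 3 overlapped. Musk was 5.64-fold higher with exercise in healthy mice (log2 2.49, interval 1.66 to 3.72) and 6.86-fold higher with the tumor without exercise (log2 2.78, interval 1.94 to 4.02). It was the single member called with exercise in healthy mice. These calls share the normal control library and its 10 reads. In tumor-bearing mice exercise made a difference of −0.54 (interval −1.10 to −0.01), and with exercise the tumor made a difference of −0.26 (interval −0.80 to 0.27) on the log2 scale. Neither was called.

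**Figure D3:**
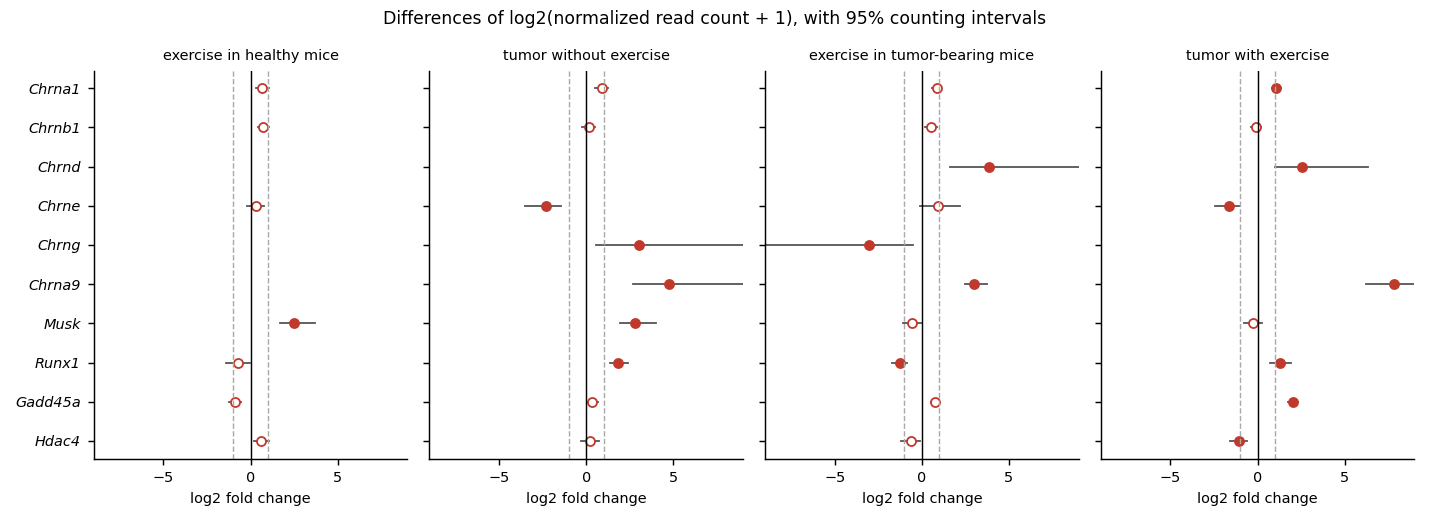
Log2 fold changes of the members (horizontal axis) in the 4 comparisons, with 95% counting intervals; filled points are called, dashed lines mark 2-fold, and intervals that reach the edge are open or run past it. Members with at most 3 reads in both libraries have no point. Musk stands alone past the line for exercise in healthy mice, and Chrne is to the left for the tumor with and without exercise.

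Runx1 encodes a transcription factor known to rise in denervated muscle and to limit its wasting (chromosome 16, 92601466 to 92826149, minus strand). It had normalized read counts of 47.9, 29.0, 176 and 71.5, from 45, 36, 164 and 66 reads. Cancer control was the high library, above all others by more than the counting intervals. Runx1 was 3.61-fold higher with the tumor without exercise (log2 1.85, interval 1.39 to 2.39) and 2.41-fold higher with the tumor with exercise (log2 1.27, interval 0.69 to 1.92). Exercise came with lower values, by 2.44-fold in tumor-bearing mice (log2 −1.28, interval −1.73 to −0.88), which was called, and by 1.63-fold in healthy mice (log2 −0.70, interval −1.39 to −0.05), which was not. The related Runx2 had 3, 5, 21 and 14 reads and was called higher with the tumor without exercise (log2 2.47, interval 1.07 to 5.21) and with exercise (log2 1.71, interval 0.35 to 3.73). Runx3 had 19, 5, 26 and 9 reads and was called lower with exercise in healthy mice (log2 −2.11, interval −4.09 to −0.85) and in tumor-bearing mice (log2 −1.42, interval −2.79 to −0.38). It was also called higher with the tumor with exercise (log2 1.14), with an interval from −0.47 to 3.19 that spans 0. Cbfb, the gene of the shared partner of all Runx factors, had 1130, 1658, 455 and 564 reads. In contrast to Runx1, it was called lower with the tumor both without exercise (log2 −1.30, interval −1.46 to −1.14) and with exercise (log2 −1.14).

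Gadd45a encodes a stress-induced protein that is known to reshape the nuclei of denervated fibres and to act downstream of HDAC4 (chromosome 6, 67035096 to 67037457, minus strand). Its normalized read counts were 176, 93.9, 223 and 384. Normal exercise was the lowest library and cancer exercise the highest, so that the largest difference of the member, 4.06-fold (log2 2.02, interval 1.73 to 2.35), was the tumor with exercise. Exercise went with a lower value in healthy mice (log2 −0.90, interval −1.26 to −0.55) and a higher one in tumor-bearing mice (log2 0.78, interval 0.54 to 1.04). Neither passed 2-fold, and the difference between them was not tested. With the tumor without exercise the difference was 0.34 (interval 0.04 to 0.65). The opposite-strand gene E230016M11Rik overlaps Gadd45a by 859 bases and had 3, 15, 0 and 2 reads. The strand setting of the counting was not stated.

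The other Gadd45 genes had another order. Gadd45g had 468, 306, 2043 and 390 reads, with cancer control as the high library in place of cancer exercise. It was called higher with the tumor without exercise (log2 2.13, interval 1.99 to 2.28) and lower with exercise in tumor-bearing mice (log2 −2.37, interval −2.53 to −2.22), as it was, at the 2-fold threshold itself, in healthy mice. Gadd45b had 113, 125, 204 and 128 reads and was called in no comparison.

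Hdac4 encodes a class IIa deacetylase that links nerve activity to transcription in muscle (chromosome 1, 91928779 to 92195699, minus strand). Its normalized read counts were 69.1, 107, 80.3 and 50.9, from 65, 132, 75 and 47 reads. Normal exercise was the highest library and cancer exercise the lowest, and the intervals of normal control and cancer control overlapped. The interval of cancer exercise also overlapped those of normal control and cancer control, and that of normal exercise overlapped that of cancer control. Hdac4 was called in 1 comparison, 2.08-fold lower in cancer exercise than in normal exercise (log2 −1.06, interval −1.58 to −0.58). The tumor without exercise made a difference of 0.21 (interval −0.28 to 0.72). In the pair in which Hdac4 was called lower, Gadd45a, Chrna1 and Runx1 were called higher.

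Of the other class IIa deacetylase genes, Hdac5 and Hdac7 were called in no comparison, with 386 to 470 reads and 1108 to 1913 reads. Hdac9 had 23, 58, 12 and 16 reads and, as Hdac4, was called lower in cancer exercise than in normal exercise (log2 −1.39, interval −2.34 to −0.62). Dach2, a repressor of myogenin that HDAC4 is known to lower in denervated muscle, had 6, 0, 1 and 13 reads. Its counting intervals in cancer exercise and normal control overlapped, and a relation to Hdac4 was not tested. Of the 13 genes listed as class IIa deacetylases and activity-linked regulators, exercise in healthy mice left 0 called higher and 1 lower, where 21.5% of all genes were called. The tumor without exercise gave 2 higher and 4 lower, against 45.1% of all genes, and exercise in tumor-bearing mice 3 higher and 2 lower, against 30.6%. The tumor with exercise gave 3 higher and 4 lower, against 30.3%. The share with the tumor without exercise was near that of all genes. Sik1, Mef2d, Mef2c and Camk2a were called in each of the last 3 of these pairs, and Dach2 in all 4. Sik1, a kinase gene induced by cyclic AMP whose product phosphorylates class IIa deacetylases, had 45, 52, 596 and 112 reads. Mef2d had 25, 28, 144 and 56 reads. Mef2c, the gene of a MEF2 factor that class IIa deacetylases repress, had 15192, 13745, 1963 and 4562 reads, and Camk2a, of an activity-sensing kinase, had 2558, 4418, 343 and 898. Sik1 and Mef2d were highest and Mef2c and Camk2a lowest in cancer control.

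Other genes of the synapse were called in both directions. Of 29 listed genes of the neuromuscular synapse, 26 passed the minimum in each comparison. With the tumor without exercise 2 were called higher and 9 lower, with a list median of −0.50 on the log2 scale. These 11 of 26 were a share near the 45.1% of all genes called. With exercise in tumor-bearing mice 6 were higher and 2 lower, with a median of 0.31, a share of the list near the 30.6% of all genes. The tumor with exercise gave 0 higher and 5 lower (median −0.29), against 30.3% of all genes called, and exercise in healthy mice 4 higher and 0 lower (median 0.09), against 21.5%.

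Among the genes of the MuSK pathway, Dok7, whose product activates MuSK from inside the fibre, had 9, 18, 0 and 17 reads. Cancer control was at least 2.98-fold lower than normal control, and cancer exercise at least 5.73-fold higher than cancer control. Dok7 was thus at 0 in cancer control, where Musk had 74 reads, with an interval that overlapped those of normal exercise and cancer exercise. Agrn, the gene of agrin, which nerve and muscle both make, had 165, 152, 56 and 91 reads and was called lower with the tumor without exercise (log2 −1.53, interval −2.01 to −1.10). Lrp4, the gene of the agrin receptor, had 58, 84, 38 and 23 reads and was called lower with the tumor with exercise (log2 −1.41, interval −2.18 to −0.77). Rapsn, the gene of the receptor-anchoring protein rapsyn, had 256, 725, 370 and 647 reads. Like Chrnb1, whose product rapsyn holds, it was higher in both exercised libraries, by 1.11 in healthy mice (interval 0.90 to 1.32), which was called, and by 0.82 in tumor-bearing mice (interval 0.64 to 1.01), which was not, on the log2 scale.

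Transcripts of the enzyme that ends the acetylcholine signal were low in the cancer libraries, as those of Chrne were. Ache, the acetylcholinesterase gene, had 39, 50, 0 and 10 reads. Cancer control was at least 12.9-fold lower than normal control, and cancer exercise was lower than normal exercise with a log2 fold change of −1.81 (interval −3.05 to −0.91). With exercise in tumor-bearing mice Ache was at least 3.37-fold higher. Colq, the gene of the collagen tail that anchors the enzyme, had 14, 40, 18 and 4 reads. It was called higher with exercise in healthy mice (log2 1.08, interval 0.21 to 2.12) and lower with exercise in tumor-bearing mice (log2 −1.91, interval −4.18 to −0.55). Etv4, an Ets factor gene of the Pea3 subfamily, had 0, 16, 26 and 22 reads. Normal control was the low library for it as for Musk, at least 4.07-fold below normal exercise and at least 8.73-fold below cancer control. Nes, the gene of nestin, a filament protein held at the synapse in adult fibres, had 239, 265, 45 and 119 reads and was called lower with the tumor without exercise (log2 −2.37, interval −2.89 to −1.93). Lama4, of a synaptic laminin chain, had 317, 327, 93 and 157 reads, with a log2 fold change of −1.75 in that pair (interval −2.11 to −1.42), and Phldb2, of a protein gathered under the synapse, one of −1.51 (interval −1.97 to −1.10).

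The genes known to rise in denervated muscle were mostly higher with the tumor. Of 22 listed genes, 21 passed the minimum with the tumor without exercise, and 14 were called higher and 2 lower, with a median log2 fold change of 1.55, or 1.44 with genes against 0 reads set to their bound. Of all genes 45.1% were called in that pair, 20.9% higher, and the list was chosen with earlier results of these data known. With the tumor with exercise 9 of 20 were higher and 0 lower (median 0.80), against 13.9% and 16.3% of all genes. Exercise in tumor-bearing mice gave 2 higher and 7 lower of 21 (median −0.15), against 15.6% and 15.1%, and exercise in healthy mice 5 higher and 4 lower of 19 (median −0.19), against 9.44% and 12.1%. Several of these genes also rise in wasting of other causes, as the ubiquitin ligase genes Trim63 and Fbxo32 do. Trim63, which encodes MuRF1, had 5595, 2255, 87575 and 38722 reads, and Fbxo32, which encodes atrogin-1, had 3361, 1002, 34786 and 16715. Both were higher in the cancer libraries and, within healthy as within tumor-bearing mice, lower with exercise. Sln and Tnfrsf12a of the same list were instead higher with exercise in healthy as in tumor-bearing mice. Sln had 43, 171, 177 and 951 reads, and Tnfrsf12a had 19, 104, 225 and 301.

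**Figure D4:**
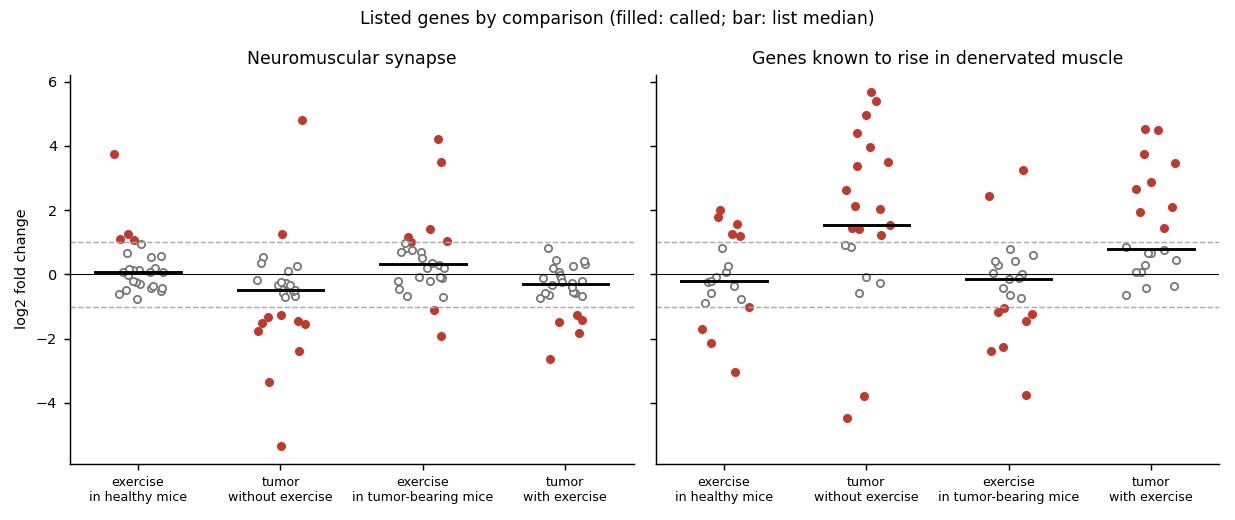
Log2 fold changes (vertical axis) of the listed genes past the minimum in the 4 comparisons, synapse genes on the left and genes known to rise in denervated muscle on the right; filled points are called, bars are medians and dashed lines mark 2-fold. With the tumor without exercise the medians stand at −0.50 on the left and 1.55 on the right.

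Myog, the gene of myogenin, which switches on receptor genes after denervation, had normalized read counts of 76.6, 174, 206 and 185. As for Musk, normal control was the low library and the other 3 were close. Exercise in healthy mice gave a log2 fold change of 1.18 for Myog (interval 0.80 to 1.59), and the tumor without exercise one of 1.41 (interval 1.03 to 1.84). Both were called. Myod1, the gene of the related factor MyoD, had 288, 356, 20 and 197 reads and was called lower with the tumor without exercise (log2 −3.77, interval −4.57 to −3.18) and higher with exercise in tumor-bearing mice (log2 3.25, interval 2.65 to 4.06). The other gene of the list called lower with the tumor without exercise was Actc1, of cardiac actin, with 953, 152, 42 and 73 reads.

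Other classical marks of denervation differed in their pattern. Ncam1, the neural cell adhesion molecule gene, had 206, 287, 138 and 166 reads and was called in no comparison. Its log2 fold change was −0.57 between cancer control and normal control (interval −0.89 to −0.25). Gdf5, a BMP family gene induced by denervation, had 0, 0, 40 and 2 reads, and was at least 13.4-fold higher in cancer control than in normal control. Like Chrng, it was high in cancer control and at or under the floor elsewhere. Ankrd1, of a stretch-responsive titin partner, had 96, 435, 4901 and 3627 reads, and Ampd3, of an AMP deaminase raised in atrophy, had 33, 105, 1054 and 216. Cdkn1a, of the cell cycle inhibitor p21, had 380, 336, 8030 and 3386 reads, and so was highest in cancer control where Gadd45a was highest in cancer exercise.

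Markers of other cell types moved with some of these values. The summed normalized read count of 14 keratinocyte markers was 367, 311, 1120 and 159, with reads for 8, 8, 14 and 7 of them. Cancer control, the library in which Chrng, Runx1 and Gadd45g were highest, was thus also the one with the most keratinocyte signal. In it 10 of 14 markers were called higher than in normal control, against 20.9% of all genes. Krt1, Krt5, Krt14, Krt15, Flg2, Dsg1a and Dsp passed the minimum through cancer control alone, and so had to differ. The list median was 3.12 on the log2 scale, or 1.58 with genes against 0 reads set to their bound. The part of that signal in the result was not tested. In cancer exercise, where Chrna9 was highest, the markers Krt1, Krt5, Krt14, Krt15, Flg2, Dsp and Dsg1a had 0 reads. Of these, only Dsp had reads in normal control. The other markers had reads in cancer exercise, with 76 for Krt10, 27 for Trp63, 15 for Perp, 9 for Sbsn, 8 for Krtdap, 7 for Sfn and 4 for Lor. The sum of 11 leukocyte markers was 1770, 1850, 2420 and 2220, and the rise in cancer control lay in Cd68, a macrophage marker with 87, 117, 957 and 295 reads. Cd68 was the 1 leukocyte marker of 9 past the minimum called between cancer control and normal control, and Csf1r, the macrophage growth factor receptor gene, had 798, 1237, 491 and 726 reads. Between cancer exercise and normal exercise 3 of 9, Itgam, Spi1 and Cd68, were called higher and 0 lower, against 13.9% and 16.3% of all genes. The sum of 6 satellite cell markers was 1480, 948, 363 and 709, lowest in cancer control as for Myod1. Most of it was Chodl, with 1280, 739, 122 and 445. Pax7, the defining marker, had 23, 27, 2 and 0 reads, Myf5 had 39, 18, 6 and 31, and Cdh15 went the other way with 110, 202, 214 and 213. That of 10 Schwann cell markers was 6090, 3330, 6270 and 2290. It was lower in both exercised libraries, where Chrnb1 and Rapsn were higher. The part of leukocytes, satellite cells and Schwann cells in the results was not tested. The defining motor neuron markers Slc18a3, Slc5a7 and Mnx1 had no reads in any library, and Chat had at most 1. The other 4 of the 8 listed had few reads, with 16, 7, 6 and 7 for Isl1, 2, 13, 12 and 6 for Nefl, 5, 0, 33 and 8 for Nefm, and 14, 3, 0 and 3 for Nefh. All 4 were called between cancer control and normal control, 2 higher and 2 lower, and their part in the results was not tested.

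**Figure D5:**
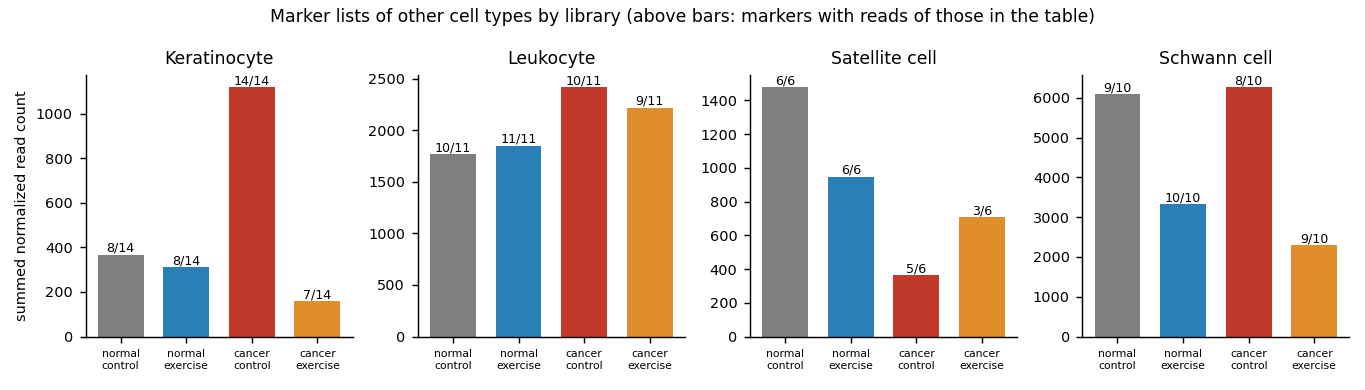
Summed normalized read counts (vertical axes, from 0) of marker lists of other cell types in the 4 libraries, with the markers that have reads, of those measured, above the bars. The keratinocyte sum is highest in cancer control (1120) and lowest in cancer exercise (159).

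For each of the 8 members whose normalized read count reached 16 in some library, the most similar genes were found among 13197 such genes by the distance of the 3 log2 fold changes against normal control, over 4 libraries. The nearest genes were 1110007C09Rik and Ggps1 for Chrna1 (distances 0.162 and 0.170), Trim11 and Adgre5 for Chrnb1 (0.0472 and 0.0926), and Maf and Meox1 for Chrne (0.157 and 0.220). They were Smyd5 and Epb4.1l5 for Musk (0.343 and 0.385), Zc2hc1c and Fbrs for Runx1 (0.276 and 0.304), Dpep2 and Mn1 for Gadd45a (0.193 and 0.225), and Gm6182 and Trmt10b for Hdac4 (0.0949 and 0.110). For Chrna9 no neighbour is given, because its differences from a library at 0 reads depend on the pseudocount. The members searched other than Chrna9 were farther from each other than from these genes. With so many genes searched against few members this was to be foreseen, and it does not show whether the members share a pattern. The closest pair of members was Chrnb1 and Hdac4, at 1.08, followed by Chrna1 and Chrnb1 at 1.34 and by Runx1 and Gadd45a at 1.62.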

How the data were processed

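RNA of gastrocnemius muscle was sequenced from the 3′ end of polyadenylated transcripts (QuantSeq), 1 library for each of 4 groups, with groups taken from the sample titles. Per the methods, the authors aligned reads with Bowtie2, counted them with Bedtools coverage and applied quantile normalization in edgeR. The submitters' processing notes name mm10. The annotation, the strand setting and the handling of reads that match several genes are not given in the sources used here. The deposited unit is log2, taken by the authors after adding 1 to each normalized read count.

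The reads behind these values were rebuilt by fitting 1 size ratio per library and 1 dispersion (0.340) to the steps of the low values. For 100% of values a whole number of reads was found within 0.0006 on the log2 scale, and from 93.8% to 95.5% of the values of a library were tied to a single count, those of the members among them. The method was tested on simulated data. For reference, 6694 genes had no reads in any library. Depth was 11269783 and 13226068 reads in normal control and normal exercise, and 10647751 and 11026338 in cancer control and cancer exercise. Where a library had 0 reads of a gene, a floor of 3 reads gave the bound on the fold.

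Differences are of the deposited log2 values. Intervals are 95% Clopper-Pearson limits of the share of a pair's reads, turned to log2 ratios. Positions and overlaps are from GENCODE M21 on GRCm38, the assembly of mm10, and promoters from RefSeq on GRCm38.p6. Python 3.11.15, numpy 2.4.6, scipy 1.17.1, pandas 2.3.3 and matplotlib 3.10.9 were used.

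The members and gene lists were chosen with earlier results of these data known. Named are all 10 members, 19 fixed genes of the lists, and up to 4 further called genes of a list, the largest change first. Of the fixed genes, 1 is not reported here. The other settings tried were scaling by total counts, by TMM (a trimmed mean of log ratios) or by the median of ratios, a pseudocount of 4 or none, no minimum, a minimum of 4 in both libraries, a minimum of 16, at least 4-fold, and reads thinned to the smallest library.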

Additional observations from a re-analysis of the deposited data

Results flagged for a closer look

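Of 29 named genes, 10 members among them, 2 were called in opposite directions with exercise in healthy and in tumor-bearing mice. None was a member. Colq, of the collagen tail of acetylcholinesterase, differed by 1.08 with exercise in healthy mice and by −1.91 in tumor-bearing mice on the log2 scale, so that the exercise difference with the tumor minus that without was −2.99. Dach2, a repressor of myogenin, differed by −2.88 in healthy mice and by 2.82 in tumor-bearing mice, so that the exercise difference with the tumor minus that without was 5.70. With 1 library a group the difference was not tested. Both genes had few reads, 4 to 40 for Colq and 0 to 13 for Dach2.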

How the results depend on the processing

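Of 210 log2 fold changes of members computed under other settings, 209 stayed within their counting interval and none changed sign. The exception was Chrna9 in cancer exercise against normal exercise, at 5.83 with a pseudocount of 4 against 7.81. Intervals against a library at 0 reads are open-ended, and such values moved far within them. With no pseudocount and a floor of 3 reads, Chrng with the tumor without exercise went from 3.04 to 1.23. Chrnd with exercise in tumor-bearing mice went from 3.85 to 2.13 in that setting. With a pseudocount of 4, Chrna9 with the tumor without exercise went from 4.74 to 2.93. Counts of members called changed by over 1.5 times in 5 of 40 cases. Exercise in healthy mice gave 2 with reads thinned to the smallest library, where Gadd45a was called. The tumor without exercise gave 3 with a minimum in both libraries, without Chrng and Chrna9. Exercise in tumor-bearing mice gave 2 with a minimum in both libraries and 2 with a minimum of 16, without Chrnd and Chrng. The tumor with exercise gave 3 at a threshold of 4-fold, without Chrna1, Chrne, Runx1 and Hdac4, which was under the 4 of the tumor without exercise. At 4-fold the listed genes called were 6 of 77 with exercise in healthy mice against 16, 23 with the tumor without exercise against 38, 9 with exercise in tumor-bearing mice against 24, and 10 with the tumor with exercise against 25. Over all genes, 4-fold left 1437, 3178, 2058 and 1951 called in these pairs against 3121, 6682, 4437 and 4378. A minimum in both libraries left 1600, 4530, 2626 and 2642, and a minimum of 16 left 1741, 5126, 2966 and 2955. Total count scaling moved the median of all genes by 0.16, 0.07, −0.07 and −0.15 on the log2 scale, so that the members' values move with it. No paired analysis was possible because each group had 1 library. Depth limits genes with few reads, such as Chrng, Chrnd, Dok7, Chrna2, Chrna4 and Dach2, whose differences rest on at most 18 reads in a library.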
